A study of Mus musculus with 30 samples.

Results

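The 10 genes described here are 6 β-tubulin genes (Tubb2a, Tubb2b, Tubb3, Tubb4b, Tubb5 and Tubb6), 3 α-tubulin genes (Tuba1a, Tuba1b and Tuba1c) and Map1b, taken by name from the 41549 genes of the expression table. They were picked because Tubb2a and Map1b had means more than 6-fold higher in LFABP-/- than in WT brown fat in these same libraries. Their genotype differences in brown fat are therefore given as a description without a test, and tests are limited to the other tissues. The study asked how loss of liver fatty acid-binding protein (LFABP, encoded by Fabp1) alters adipose tissue of obese mice. Bulk poly(A) RNA was sequenced from 5 LFABP-/- and 5 WT males on a C57Bl/6J background. Both genotypes were fed a diet with 45% of its energy as fat for 12 weeks from 2 months of age and were food deprived for 4 h, so every library comes from an obesogenic diet and no low-fat group was analysed here. The same 10 mice gave interscapular brown adipose tissue (iBAT), inguinal white adipose tissue (iWAT) and liver, which makes 30 libraries in 6 groups of 5.

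Microtubules are hollow polymers of α-tubulin and β-tubulin dimers that set cell shape, carry vesicles and organelles and form the mitotic spindle. Each subunit is encoded by several genes, the isotypes, whose proteins copolymerise and differ mainly in their acidic tails. Map1b, microtubule-associated protein 1B, binds along the microtubule lattice and is best known from growing axons. In adipocytes the microtubule network serves insulin-stimulated glucose transporter traffic and the movement of lipid droplets.

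Values are on the TPM scale, where reads are divided by transcript length and every library has the same total, so levels of different genes can be set side by side. Genes of the mitochondrial genome took up, on average, 56.3% and 57.8% of the total in LFABP-/- and WT iBAT, 16.4% and 16.8% in iWAT and 17.7% and 13.6% in liver. Between tissues the levels of all other genes therefore depend on this share. As a check of the genotype labels, Fabp1 was 0.2 to 51.8 in LFABP-/- liver and 9166 to 12698 in WT liver. In iBAT, Fabp1 ran against the labels, with 0.4, 2.0, 21.2, 15.0 and 13.1 in the libraries labelled LFABP-/- and 1.4, 0.2, 0.4, 5.1 and 8.7 in those labelled WT. In mice 3 to 5 the value labelled LFABP-/- iBAT was above that of the same mouse's liver (0.3, 0.6 and 0.2). The targeted gene therefore gave no check of the iBAT labels, and LFABP-/- iBAT below means libraries so labelled. The library labelled LFABP-/- iWAT replicate 1 held 196 of Fabp1, against 0.2 to 0.9 in the other LFABP-/- iWAT libraries and 1.9 to 23.9 in WT iWAT. It also held hepatocyte transcripts at 1.9% of its own liver's level, so iWAT differences of the members are given without it as well. The tissue labels fitted their defining markers: the thermogenic uncoupling protein gene Ucp1 averaged 6745 ± 645 and 4794 ± 612 in LFABP-/- and WT iBAT (SD, n = 5 each), and the adipose hormone gene Lep averaged 2435 and 1028 in LFABP-/- and WT iWAT. Brown adipocyte markers summed to 3016 in LFABP-/- iWAT replicate 2, against 252.5 to 960.5 in the other iWAT libraries and at least 14665 in iBAT. In bulk tissue, fewer cells of a type and less RNA per cell cannot be told apart.

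The tubulin genes are close copies, which bears on how their reads were divided. Tubb2a (ENSMUSG00000058672, chr13:34074274-34078007, minus strand, GRCm38) lies next to Tubb2b (chr13:34126748-34130466), and their coding sequences are 96.5% identical, while the other β-tubulin pairs are 80.3% to 86.0% identical. Of the 100-base windows of Tubb2a transcripts, the read length used, 36.9% also occur in transcripts of another gene, mostly Tubb2b. The share is 27.7% for Tubb2b and 30.6% for Tubb4b, whose partners are mainly processed pseudogenes. The α-tubulin coding sequences are 97.1% to 98.3% identical, and 65.8%, 73.0% and 53.4% of the windows of Tuba1a, Tuba1b and Tuba1c recur elsewhere. Values of these 6 genes are therefore uncertain to the extent that reads were assigned to the wrong copy. No window of Tubb3, Tubb5, Tubb6 or Map1b (ENSMUSG00000052727, chr13:99421446-99516540, minus strand) was shared. In liver, where Tubb2a was 24.8 to 256, Tubb2b was 0.0 to 2.3, so a high Tubb2a level was not accompanied by a like level of Tubb2b.

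The 250 bases before the transcription start were taken from RefSeq (GRCm38.p6) for the 8 genes with an entry, and 4 are shown. Tubb2a and Map1b are the genes with the largest brown fat differences, Tubb4b is the most abundant β-tubulin of brown fat and Tubb5 differed least among the abundant ones. Capitals mark matches on either strand to 4 motifs. The TATA box was searched as TATAAA and the CCAAT box by its own letters. The GC box, bound by Sp1-type factors, was searched as GGGCGG. The cAMP response element (CRE) was searched as TGACGTCA. The sequences run 5′ to 3′ on the gene's strand and end at the base before the start.
Tubb2a, chr13:34078009-34078258, minus strand: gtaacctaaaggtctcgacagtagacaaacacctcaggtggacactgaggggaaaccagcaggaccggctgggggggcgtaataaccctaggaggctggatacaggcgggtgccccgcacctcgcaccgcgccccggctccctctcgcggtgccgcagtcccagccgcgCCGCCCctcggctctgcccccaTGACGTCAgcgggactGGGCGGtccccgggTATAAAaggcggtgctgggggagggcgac
Map1b, chr13:99516603-99516852, minus strand: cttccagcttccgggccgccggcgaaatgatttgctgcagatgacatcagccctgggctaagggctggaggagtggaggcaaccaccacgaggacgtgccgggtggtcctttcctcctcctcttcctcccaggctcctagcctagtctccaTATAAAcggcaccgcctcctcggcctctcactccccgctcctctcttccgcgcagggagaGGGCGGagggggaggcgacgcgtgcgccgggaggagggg
Tubb4b, chr2:25224703-25224952, minus strand: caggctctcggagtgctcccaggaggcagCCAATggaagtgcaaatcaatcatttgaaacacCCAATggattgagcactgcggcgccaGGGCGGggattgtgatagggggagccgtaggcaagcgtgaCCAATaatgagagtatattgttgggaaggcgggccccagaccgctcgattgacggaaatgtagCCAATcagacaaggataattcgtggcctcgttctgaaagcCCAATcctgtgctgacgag
Tubb5, chr17:35838302-35838551, minus strand: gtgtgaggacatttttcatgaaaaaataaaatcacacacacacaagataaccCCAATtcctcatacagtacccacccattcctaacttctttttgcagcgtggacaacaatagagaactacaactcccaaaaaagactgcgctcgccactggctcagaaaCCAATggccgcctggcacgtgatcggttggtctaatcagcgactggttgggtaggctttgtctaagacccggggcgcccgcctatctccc
The Tubb2a window held TATAAA at -29 to -24, TGACGTCA at -59 to -52 and a GC box on each strand, at -43 to -38 and -81 to -76. The Map1b window held TATAAA farther out, at -99 to -94, and GGGCGG at -39 to -34. TATAAA was found in Tubb2a and Map1b and in none of the other 6 windows, and occurs in 12.4% of 32851 promoter windows of the same length. TGACGTCA was found in Tubb2a alone, and occurs in 1.55% of windows. Tubb4b held 5 CCAAT matches and Tubb5 held 2, against a motif share of 33.8% of windows, and GGGCGG occurs in 32.7%. The E box CANNTG, not capitalised here, had 1 match in each window except that of Tubb3, which had 0, and occurs in 66.2% of windows. In Tuba1a the E box overlapped the GC box by 1 base, and no other matches overlapped. These are letter matches and not binding sites.

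**Figure D1:**
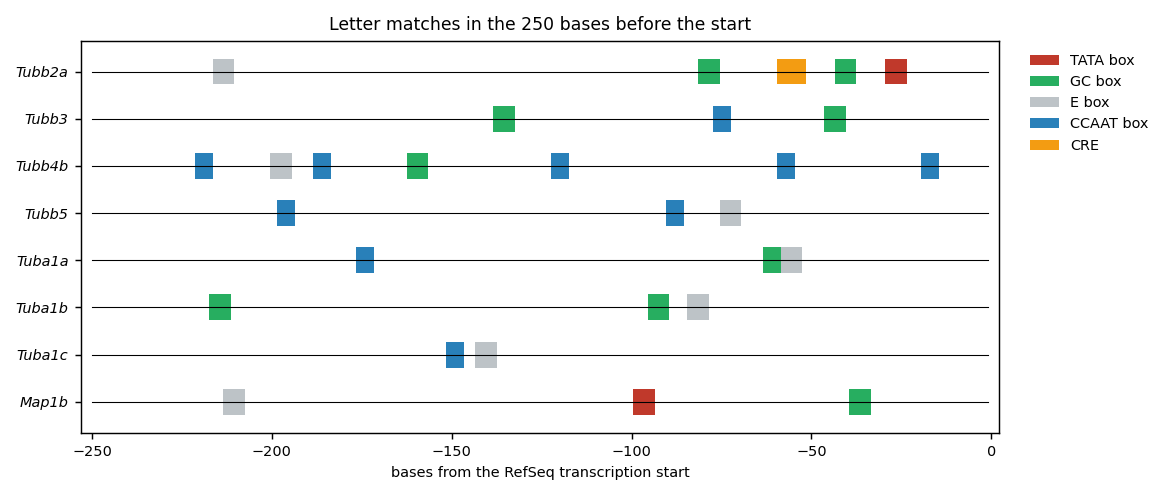
Letter matches in the 250 bases before the RefSeq start of 8 genes (horizontal axis, bases from the start; 1 row per gene, coloured boxes are matches on either strand). The TATA box match stands in the Tubb2a and Map1b rows, and the CRE match in the Tubb2a row.

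In brown fat, Tubb2a encoded a minor β-tubulin of WT mice and the second most abundant one of LFABP-/- mice. Its value was 138, 69.6, 93.9, 78.4 and 68.7 in the LFABP-/- iBAT libraries and 14.8, 12.5, 15.7, 12.3 and 13.1 in the WT iBAT libraries. Every library labelled LFABP-/- lay far above every library labelled WT, with LFABP-/- replicate 1 the highest. The means were 89.8 ± 28.9 in LFABP-/- and 13.7 ± 1.5 in WT iBAT (SD, n = 5 each), a fold of 6.56, and the log2 difference of 2.63 ranked 88 from the top among 11614 genes with a mean of at least 1. It was 2.46 without LFABP-/- replicate 1.

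Tubb2b, the neighbouring copy, was much lower, with 4.4, 3.7, 3.8, 2.3 and 4.7 in LFABP-/- iBAT and 0.5, 0.5, 1.8, 0.8 and 0.7 in WT iBAT. The groups did not overlap, and the means of 3.78 ± 0.93 in LFABP-/- and 0.86 ± 0.54 in WT iBAT gave a fold of 4.40. Tubb2b is the gene just outside the 6-fold mark and Tubb2a the one just inside it.

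Tubb4b, a broadly expressed isotype also built into cilia, was the most abundant β-tubulin in brown fat of both genotypes. It reached 203, 184, 170.0, 171 and 163 in LFABP-/- iBAT and 122, 128, 118, 100.4 and 135 in WT iBAT. The lowest LFABP-/- library was above the highest WT library, and the fold of means was 1.48. Tubb5, the general housekeeping β-tubulin, overlapped between genotypes, with 21.6 to 34.7 (median 28.1) in LFABP-/- iBAT and 24 to 27.4 (median 25.9) in WT iBAT, a fold of 1.10. Tubb6, the class V isotype, also overlapped, at 11.2 to 15.2 and 9.8 to 16.3 in LFABP-/- and WT iBAT. Tubb3, the neuronal isotype, was 0.1 to 0.2 in LFABP-/- iBAT and 0.0 to 0.2 in WT iBAT and fell under the minimum mean of 1 needed for a fit.

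Map1b was 6.1, 6.9, 5.2, 3.8 and 4.8 in LFABP-/- iBAT and 0.8, 0.5, 0.8, 0.6 and 0.5 in WT iBAT. The lowest library labelled LFABP-/- held more than 4 times the highest labelled WT. The means were 5.36 ± 1.19 in LFABP-/- and 0.64 ± 0.15 in WT iBAT (SD, n = 5 each), a fold of 8.38. Because the WT values were close to the pseudocount of 0.5, its log2 difference of 2.35 (place 115 of 11614) moved with that choice, to 2.88 with a pseudocount of 0.1 and 1.94 with 1.

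The α-tubulins were higher as well, by smaller factors. Tuba1c, a broadly expressed isotype, was 19, 15.1, 15.6, 12.6 and 10.3 in LFABP-/- iBAT and 5.8, 5.6, 6.6, 4.1 and 6.5 in WT iBAT, a fold of 2.54 with no overlap. Tuba1b, the most abundant α-tubulin of brown fat, was 107 to 173 (median 145) in LFABP-/- iBAT and 59.9 to 105 (median 72.4) in WT iBAT, a fold of 1.75. Tuba1a, prominent in developing neurons, was 54.3 to 68.9 (median 58.1) and 32.1 to 51.6 (median 36.8) in LFABP-/- and WT iBAT, a fold of 1.5. For Tuba1a and Tuba1b too the lowest LFABP-/- library lay above the highest WT library.

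Of the 10 genes, 9 passed the minimum mean in iBAT, and 7 of them had groups that did not overlap, with the libraries labelled LFABP-/- higher. In this tissue 12.1% of all tested genes had such groups and 1.68% had a fold of means above 6. The choice of genes used this contrast, so the counts carry no weight beyond description. The members' median log2 difference was 0.82, beside -0.03 over all genes tested. With LFABP-/- iBAT replicates 1 to 3 left out, the log2 differences of Tubb2a and Map1b were 2.39 and 2.08.

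**Figure D2:**
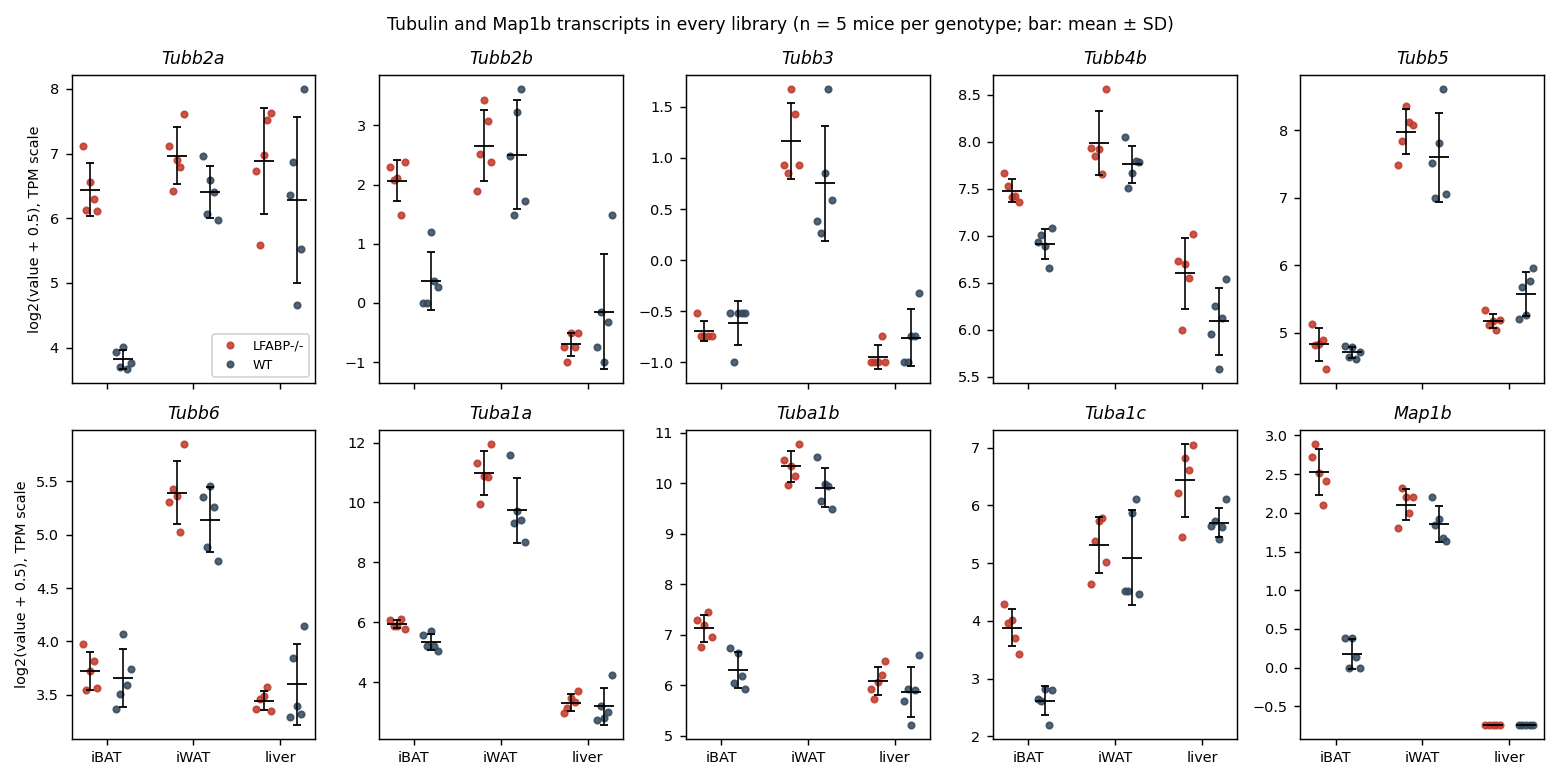
Values of the 10 genes in all 30 libraries (vertical axis, log2 of value plus 0.5 on the TPM scale, own range per panel; points are mice, bars are mean ± SD, n = 5 per genotype and tissue). In the iBAT columns of Tubb2a, Map1b, Tubb2b and Tuba1c the LFABP-/- and WT points stand apart, and in the iWAT and liver columns the genotypes overlap.

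The makeup of the β-tubulin message in brown fat differed with Tubb2a. Its share of the summed β-tubulin value was 28% ± 4.5 in LFABP-/- iBAT and 7.83% ± 0.80 in WT iBAT (SD, n = 5 each). Tubb4b held 57.0% ± 4.3 and 68.7% ± 3.0, Tubb5 held 8.98% ± 0.72 and 14.8% ± 1.0, and Tubb6 held 4.08% ± 0.33 and 7.04% ± 1.36 in LFABP-/- and WT iBAT. The summed β-tubulin value was 272 to 398 in LFABP-/- iBAT and 152 to 189 in WT iBAT. The β sum also took in Tubb1 and Tubb4a, and the α sum also took in Tuba3a, Tuba3b, Tuba4a, Tuba8 and Tubal3. The α sum was 257 to 322 and 190 to 276 in LFABP-/- and WT iBAT, so the ratio of α to β was 0.970 ± 0.135 and 1.35 ± 0.191. Tuba1a, Tuba1b and Tuba1c held 20.3%, 46.4% and 4.84% of the α sum in LFABP-/- iBAT and 17.5%, 34.4% and 2.45% in WT iBAT. Tuba4a held 13.2% ± 3.4 and 17.4% ± 8.7. The ratio thus depends on α-tubulins outside the genes described here, and was not computed without them.

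**Figure D3:**
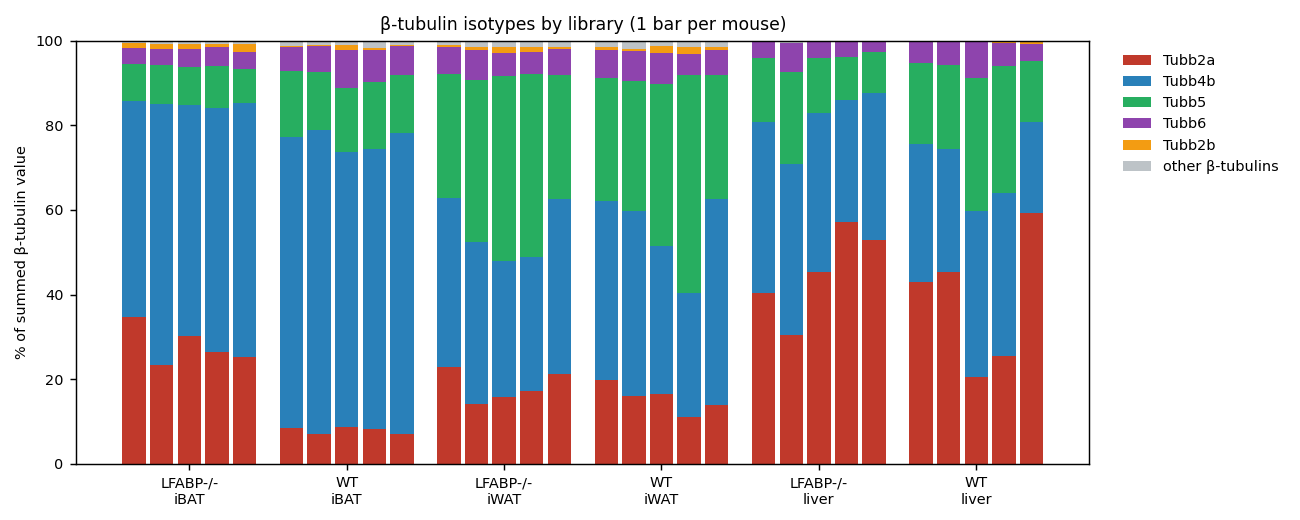
Share of each isotype in the summed β-tubulin value (vertical axis, percent; 1 bar per mouse, grouped by genotype and tissue). The red Tubb2a segment is 23.3% to 34.7% in LFABP-/- iBAT and 6.93% to 8.69% in WT iBAT, and overlaps between genotypes in iWAT and liver.

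Transcripts of other cell types also varied among the brown fat libraries. Of 15 hepatocyte markers, 13 were called higher in LFABP-/- iBAT (limma adjusted p under 0.1), where 22.3% of all genes were called higher and 25.5% lower (47.8% in either direction), with summed levels of 2719 to 5288 in LFABP-/- and 2053 to 2888 in WT libraries. Albumin (Alb) was 95.2 to 915 in LFABP-/- and 1.9 to 49.6 in WT libraries. Over the 13 markers other than Pck1 and Cyp2e1, the median level relative to the same mouse's liver was 1.27%, 1.85%, 1.56%, 0.335% and 0.17% in LFABP-/- iBAT and 0.0025% to 0.0811% in WT iBAT. Multiplied by each mouse's liver level of Tubb2a, these percentages come to 0.333 to 1.95 in LFABP-/- libraries, beside the measured 68.7 to 138. The liver-type RNA did not match the mouse's own liver in Fabp1, as given above, so the product was also taken with each of the 10 livers, where it reached at most 4.18 for Tubb2a and 2.19 for Tuba1c. With the own liver the product for Tuba1c was at most 1.76, and Map1b was 0.1 in every liver library. Skeletal muscle markers summed to 323 to 20340 in LFABP-/- and 1839 to 46833 in WT iBAT, with 0 of 25 called higher and 4 called lower. With their level as a covariate, the log2 differences were 2.56 for Tubb2a and 2.39 for Map1b.

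Markers of neurons, the cells in which Map1b and Tubb3 are best known, were scarce. Sympathetic neuron markers summed to 6.6 to 7.7 in LFABP-/- and 7.1 to 9.7 in WT iBAT, with the 1 gene tested called lower, and 7 of 16, among them the defining noradrenaline synthesis gene Dbh, were at 0 in all 10 libraries. Schwann cell markers summed to 111 to 194 in LFABP-/- iBAT and 153 to 222 in WT iBAT, with 0 of 8 tested called higher and 5 called lower. Of 25 proliferation genes, 2 passed the minimum mean, and Pcna, the replication clamp gene, was 15.4 ± 1.7 in LFABP-/- and 18.4 ± 0.8 in WT iBAT and was called lower. Fibroblast and progenitor markers had 5 of 11 called lower, endothelial markers 6 of 12, smooth muscle and pericyte markers 7 of 12 and macrophage markers 1 of 10, each with 0 called higher. Over all iBAT genes the shares were 25.5% lower and 22.3% higher. None of the lymphocyte markers passed the minimum mean in iBAT. How far the mix of cells moved the tubulin values was otherwise not tested.

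**Figure D4:**
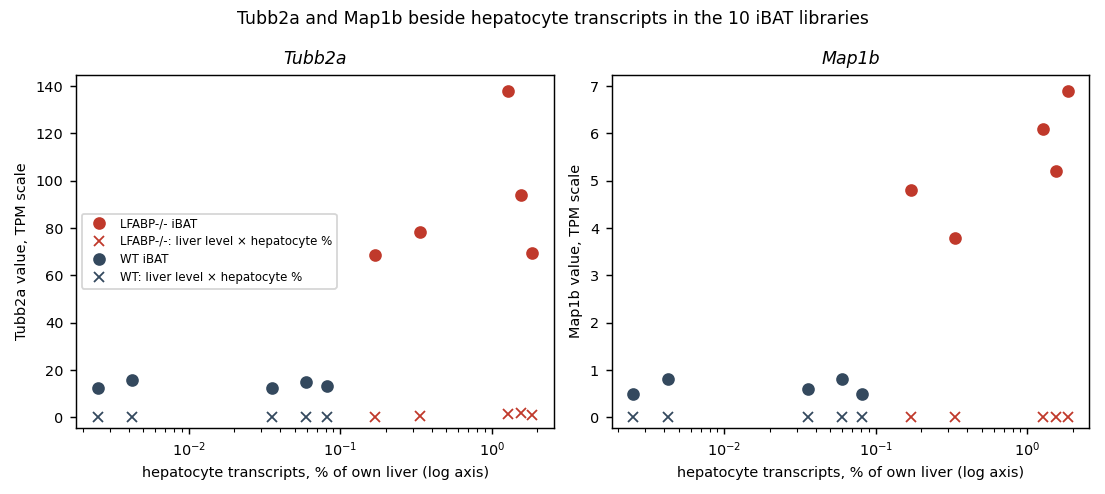
Tubb2a (left) and Map1b (right) in the 10 iBAT libraries (vertical axis, value on the TPM scale) against the level of 13 hepatocyte markers as a percentage of the same mouse's liver (horizontal log axis). Filled points are measured values and crosses are the mouse's liver level multiplied by that percentage; the Tubb2a crosses reach at most 1.95, while the LFABP-/- points lie at 68.7 to 138.

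Across the 6 groups, WT brown fat had the lowest Tubb2a on the TPM scale. Mitochondrial genes took up 56.3% and 57.8% of the total in LFABP-/- and WT iBAT, and 13.6% to 17.7% in the other groups. This lowers iBAT values of other genes against those of iWAT and liver. The order and overlaps below were not recomputed without mitochondrial genes and can change with that share. The means, in falling order, were 131 in LFABP-/- liver, 129 in LFABP-/- iWAT, 105 in WT liver, 89.8 in LFABP-/- iBAT, 86.8 in WT iWAT and 13.7 in WT iBAT. Each neighbouring pair in that order overlapped except the last. For Map1b the order was LFABP-/- iBAT with 5.36, LFABP-/- iWAT with 3.84, WT iWAT with 3.16, WT iBAT with 0.64 and both liver groups with 0.1. LFABP-/- iBAT and LFABP-/- iWAT overlapped for Map1b (3.8 to 6.9 and 3.0 to 4.5), as did LFABP-/- and WT iWAT, whereas WT iBAT and liver were separate from their neighbours.

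In white fat no gene of the 10 was called or had groups that did not overlap, and all 10 differences were positive. The members' median log2 difference in iWAT was 0.31, beside 0.05 over all 14668 genes tested, of which 1.45% were called (limma, adjusted p under 0.1) and 3.11% had groups that did not overlap. At an unadjusted p under 0.05, Tubb2a and Tuba1a passed. Tubb2a was 139, 85, 119, 110.0 and 194 in LFABP-/- iWAT and 125, 66.4, 96.1, 84.3 and 62.4 in WT iWAT. All 5 LFABP-/- libraries were above the WT median, but only 2 were above the highest WT library. The log2 difference was 0.56 (95% interval 0.03 to 1.10, limma adjusted p = 0.445, exact permutation p = 0.0794), and 0.53 without the library labelled LFABP-/- iWAT replicate 1. Without that library the differences of the other 9 genes were 0.24 (Tubb4b) to 1.17 (Tuba1a), with 0.39 for Tuba1b and 0.32 for Map1b, and none was called.

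Tuba1a was among the most abundant and the most variable of the genes in iWAT. It was 2583, 992.5, 1894, 1845 and 3948.5 in LFABP-/- iWAT and 3048, 636, 846, 681 and 412 in WT iWAT. WT replicate 1 stood apart from the other 4 WT libraries and above all but 1 LFABP-/- library. The log2 difference was 1.25 (interval 0.09 to 2.42, limma adjusted p = 0.430, exact permutation p = 0.0952). Without WT replicate 1 it was 1.71, with an adjusted p of 0.0805 (range over the 10 fits that each left out 1 iWAT library, 0.0805 to 0.798). This was the 1 call of a member in those 10 fits. Tuba1b was 993 to 1744 (median 1295) in LFABP-/- and 713 to 1455 (median 976) in WT iWAT, a log2 difference of 0.42 (interval -0.05 to 0.89, adjusted p = 0.560).

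Map1b differed little in iWAT, at 3.0, 4.5, 4.1, 3.5 and 4.1 in LFABP-/- and 4.1, 3.1, 3.3, 2.7 and 2.6 in WT libraries. The groups overlapped, and the log2 difference was 0.25 (interval -0.11 to 0.61, adjusted p = 0.715). The other members had log2 differences between 0.15 (Tubb2b) and 0.41 (Tubb3), with adjusted p of 0.765 to 0.972.

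Lymphocyte markers split the iWAT libraries. They summed to 56.2, 1432, 2587, 2391 and 58.7 in LFABP-/- and 42.5, 32.1, 950.1, 3459 and 41.1 in WT iWAT, so LFABP-/- replicates 2 to 4 and WT replicates 3 and 4 were high. Tubb5 was 223 to 391 in those 5 libraries and 128 to 268 in the other 5. Tuba1c was 41.5 to 68.5 in those 5 and 21.5 to 31.9 in the others, and Tubb2b was 5.2 to 11.8 in those 5 and 2.3 to 5.1 in the others. Tuba1a had a median of 992.5 in the 5 lymphocyte-rich libraries and 2583 in the others. With the marker level as a covariate, the genotype difference was -0.15 for Tubb2b and -0.06 for Tuba1c in place of 0.15 and 0.22, and the other 8 genes kept a positive sign. None was called with the covariate or with those 5 libraries left out. The latter fit kept only LFABP-/- replicates 1 and 5 and WT replicates 1, 2 and 5. LFABP-/- replicate 1 is the library with Fabp1 at 196. In that fit Tubb2a gave 1.03 (limma adjusted p = 0.359, range over all other settings 0.175 to 0.560). Skeletal muscle markers were also uneven in iWAT, with 20 of 20 tested differences positive and 0 called.

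In liver 1 of 7 tested members, Tubb5, was called, in a tissue where 16.9% of genes were. WT liver replicate 5 stood apart in its markers, with macrophage markers summing to 1358 (333 to 508 in the other WT livers), fibroblast and progenitor markers to 276.6 (97.6 to 126) and lymphocyte markers to 34 (8.4 to 12.3). That liver also held the highest WT value of all 7 tested members, so differences are given without it too, and the part of its cell mix in them was not tested. Without it, Tubb2a differed by 1.03, Tubb4b by 0.62, Tubb5 by -0.31 and Tuba1c by 0.83.

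Tuba1c was 74.1, 43.4, 113, 97.8 and 132 in LFABP-/- liver and 49.5, 52.4, 42.2, 48.7 and 68.6 in WT liver. LFABP-/- replicate 2 was the 1 library below the highest WT value. The log2 difference was 0.73 (interval 0.16 to 1.31), which narrowly missed the threshold (limma adjusted p = 0.100334, exact permutation p = 0.0635). Without LFABP-/- replicate 2 the difference was 0.98 with an adjusted p of 0.0207, and without WT replicate 5 it was 0.83 with 0.0794, while the other 8 such fits gave 0.130 to 0.208.

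Tubb5 was 39.9, 34.2, 35.8, 32.6 and 36.0 in LFABP-/- liver and 36.5, 50.9, 38.1, 54 and 62 in WT liver. The LFABP-/- libraries lay close together and below the WT median, while the WT libraries were spread. Tubb5 was called lower (log2 difference -0.40, interval -0.71 to -0.09, limma adjusted p = 0.0937, exact permutation p = 0.0397), where 13.9% of all 11629 liver genes were called lower and 3.08% higher. The median over all liver genes was -0.10. The call was lost when libraries were scaled by median ratios (-0.30, adjusted p = 0.152, range over all other settings 0.0708 to 0.184). Of the 10 fits that left out 1 liver library it held in 2, those without WT replicate 1 or 3, and was lost without any 1 of the other 8 (adjusted p 0.0508 to 0.204).

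Tubb4b was 106, 63.2, 103, 93.0 and 129 in LFABP-/- liver and 61.5, 75.5, 47.3, 69.1 and 92.7 in WT liver. Again LFABP-/- replicate 2 was the lowest of its group, and the other 4 exceeded every WT library. The log2 difference was 0.51 (interval 0.06 to 0.96, limma adjusted p = 0.135, exact permutation p = 0.0635). Tubb4b was called higher without LFABP-/- replicate 2 (adjusted p = 0.0565) or without WT replicate 5, with a range over such fits of 0.0565 to 0.270. Under median-ratio scaling Tubb4b and Tuba1c were both called higher (adjusted p = 0.0626 and 0.0574, ranges over all other settings 0.0626 to 0.206 and 0.0574 to 0.158). Hepatocyte markers had 4 of 15 called lower and 0 higher in LFABP-/- liver, macrophage markers 1 of 14 called lower and proliferation genes 1 of 8 called higher. Over all liver genes the shares were 13.9% lower and 3.08% higher.

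Tubb2a varied more between single livers than between genotypes. It was 105, 47.5, 125, 183 and 197 in LFABP-/- liver and 81.5, 117, 24.8, 45.5 and 256 in WT liver. The range of the WT livers alone held every LFABP-/- value. The log2 difference was 0.60 with a wide interval of -0.66 to 1.86 (limma adjusted p = 0.525). Of 7869 genes with a mean of at least 5 in WT liver, 59 had a larger coefficient of variation than its 87.2%, where the median gene had 13.1%. Tubb6, Tuba1a and Tuba1b had log2 differences of -0.15, 0.12 and 0.21 (adjusted p = 0.554 to 0.787). Map1b was 0.1 in all 10 livers, Tubb3 was 0.0 to 0.3 and Tubb2b 0.0 to 2.3, and these 3 genes did not pass the minimum mean.

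**Figure D5:**
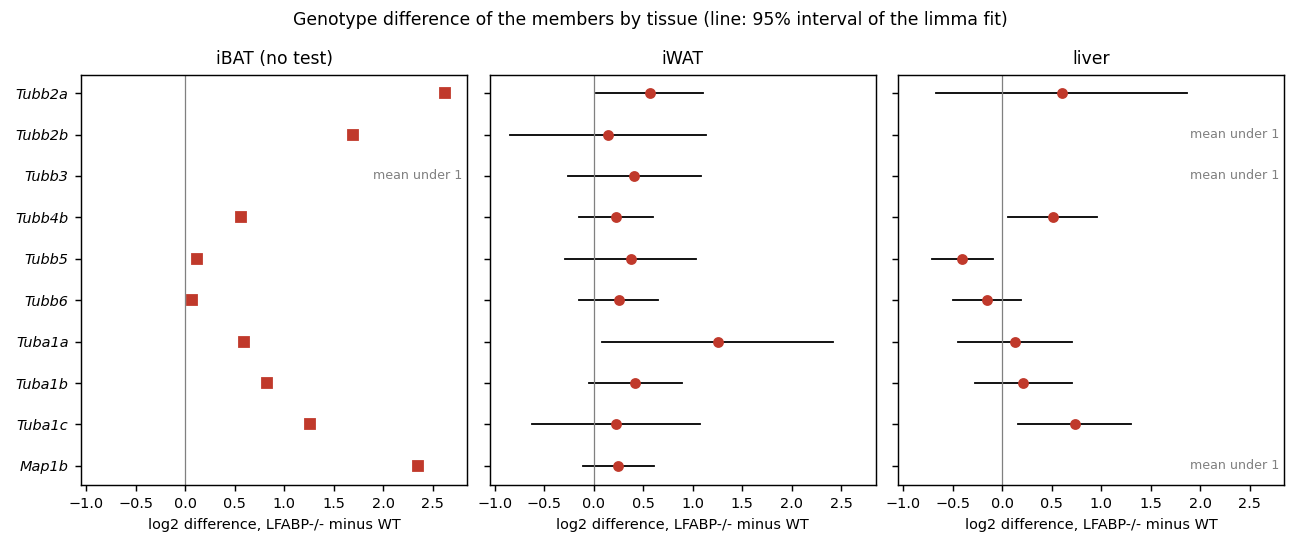
Genotype difference of each gene by tissue (horizontal axis, log2 scale, LFABP-/- minus WT; lines are 95% intervals of the limma fit, squares in iBAT have none because the genes were picked on that contrast). Tubb2a and Map1b lie at 2.63 and 2.35 in iBAT and at 0.56 and 0.25 in iWAT, and in liver Tubb5 lies below 0 and Tuba1c above it.

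The isotype shares were compared between genotypes in iWAT and liver over 20 measures, by exact two-sided permutation tests on 252 assignments of libraries, for which the smallest possible p is 0.0079. None passed after adjustment (lowest adjusted p = 0.357). Tubb2a made up 18.2% ± 3.6 and 15.5% ± 3.3 of β-tubulin in LFABP-/- and WT iWAT (17.1% without LFABP-/- replicate 1), and 45.2% ± 10.5 and 38.7% ± 15.8 in LFABP-/- and WT liver. Tuba1c made up 36.3% ± 4.6 of α-tubulin in LFABP-/- liver and 30% ± 2.8 in WT liver (exact permutation p = 0.0397, adjusted p = 0.357, above all WT livers in 4 of 5). Tuba1a made up 59.8% ± 7.8 of α-tubulin in LFABP-/- iWAT and 45.5% ± 12.6 in WT iWAT (exact permutation p = 0.0714), and 58.7% without LFABP-/- replicate 1.

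White fat and liver of WT mice differed in most genes tested, and the genes described here did so no more often. In WT iWAT against WT liver, 9 of the 10 genes could be tested and 7 were called higher in iWAT, a comparison in which 91.1% of 14204 genes were called and 77.5% were called higher. Tuba1a averaged 1125 ± 1086 in WT iWAT and 9.4 ± 5.1 in WT liver, a log2 difference of 6.55 ± 0.49 (SE, limma adjusted p = 2.29e-07), and Tuba1b averaged 991 ± 286 in WT iWAT and 60.7 ± 22.1 in WT liver, a difference of 4.05. Tubb2b, Map1b, Tubb5, Tubb4b and Tubb6 were higher in iWAT by 2.65, 2.59, 2.02, 1.67 and 1.54 on the log2 scale. Tubb2a (0.12, adjusted p = 0.835) and Tuba1c (-0.61, adjusted p = 0.108) were not called. Tuba1c was called lower in iWAT without WT iWAT replicate 3 or WT iWAT replicate 4, the WT libraries rich in lymphocyte markers (lowest adjusted p = 0.0146, range over such fits 0.0146 to 0.232). The median of all genes was 1.19 higher in iWAT in this comparison, and under median-ratio scaling, which removes that shift, both were called lower in iWAT (-1.10 and -1.82), while the 7 others stayed higher.

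Whether the genotype effect differed between iWAT and liver was tested as an interaction. None of the 9 genes tested was called, where 1.68% of 14218 genes were. The largest differences were 1.13 for Tuba1a (interval -0.16 to 2.42, limma adjusted p = 0.494) and 0.78 for Tubb5 (0.06 to 1.5, adjusted p = 0.350). Without WT iWAT replicate 4 Tubb5 was called, at 1.03 (adjusted p = 0.0552, range over such fits 0.0552 to 0.590). With the mouse as a block, 157 genes were called in place of 239, again with 0 members. For Tubb2a the difference was -0.04, with an interval of -1.46 to 1.38 that leaves a wide range.

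The rest of the tubulin gene family in iBAT did not follow Tubb2a. Of all iBAT genes, 22.3% were called higher and 25.5% lower. Of 11 further tubulin genes 5 were tested. The γ-tubulin gene Tubg1, which nucleates microtubules, was called higher (36.9 ± 3.7 in LFABP-/- and 27.9 ± 2.6 in WT iBAT). Tuba8, an isotype of muscle and testis, was called lower (45.8 ± 8.7 in LFABP-/- and 67.0 ± 17 in WT iBAT). Skeletal muscle markers had a median log2 difference of -1.22 in iBAT, and the part of muscle content in the Tuba8 difference was not tested. Among 22 genes for tubulin folding, 7 were called higher and 2 lower, led by the prefoldin subunit gene Pfdn2 (log2 difference 0.48) and the cofactor genes Tbcd (0.37) and Tbcb (0.20). Of 15 tested tubulin-modifying enzymes 4 were called higher and 3 lower. Ttl, which restores the terminal tyrosine of α-tubulin, differed by 0.39 and its relative Ttll12 by 0.66, and the deacetylase Sirt2 by -0.41.

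Other microtubule-binding genes were called in both directions in iBAT, beside 22.3% higher and 25.5% lower over all genes. Of 24 tested microtubule-associated protein genes 6 were called higher and 6 lower, and Mapt, which encodes tau and like Map1b is best known from axons, was called lower with 13.6 ± 1.4 in LFABP-/- and 23.2 ± 2.3 in WT libraries. Ckap5 and Clasp2, which act at growing microtubule ends, differed by -0.45 and -0.34. Of 24 motor genes 7 were called higher and 6 lower, with the kinesin-2 gene Kif3a at 0.92 and the dynein chain genes Dynlt1b and Dync1li1 at 0.55 and 0.39. Of 7 destabilising proteins 2 were called higher, including the severing enzyme subunit Katna1 (0.26). Of 30 actin and intermediate filament genes 14 were called higher and 3 lower, and Actb, Actn4 and Myl12a differed by 0.65, 0.64 and 0.46. None of 8 tested neurite growth genes was called, and Nrn1, the one with the smallest p, differed by 0.67 (limma adjusted p = 0.141). The medians of these lists lay between -0.08 and 0.26, beside -0.03 over all genes.

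In iWAT, where 1.45% of all genes were called, 1 gene of these lists was called, Mid1ip1. Its product stabilises microtubules and also activates acetyl-CoA carboxylase. Mid1ip1 averaged 109 ± 34 in LFABP-/- and 51.9 ± 7.7 in WT libraries (log2 difference 1.01, limma adjusted p = 0.0731). Its LFABP-/- mean was 112 without replicate 1. In liver Tuba4a, the α-tubulin with an encoded end lacking the terminal tyrosine, was called higher (75.9 ± 23.4 in LFABP-/- and 48.5 ± 10.6 in WT liver, adjusted p = 0.0962), as was the folding cofactor gene Tbcb (0.34). Of 23 tested liver motor genes 6 were called lower and 0 higher, among them Dync1h1 (-0.53), Kif3b (-0.49) and Dctn1 (-0.41). The modifying enzymes had 4 of 13 called lower, the microtubule-associated proteins 3 of 20 and the destabilising proteins 1 of 6, each with 0 higher. The actin and intermediate filament genes had 2 called higher and 3 lower of 29. Over all liver genes the shares were 13.9% lower and 3.08% higher.

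Within a group most pairs of the genes described here were positively correlated. Over the deviations of 10 libraries from their group means, all 21 pairs of tested members were positively correlated in liver, with a median r of 0.69 (all 21 positive and a median of 0.525 over 9 libraries without WT liver replicate 5), as were 35 of 45 pairs in iWAT (median 0.30) and 32 of 36 in iBAT (median 0.39). The closest pairs were Tubb2a with Tuba1b in iWAT (r = 0.97) and in liver (0.91), and Tuba1a with Tuba1b in iBAT (0.90). These points share libraries, and the α-tubulin pairs also share reads. Pairs of other genes were not measured, so whether these genes vary together more than others is not known. The genes paired differed between tissues, so the medians do not rank the tissues.

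Over the 10 iBAT libraries, 7005 genes with a mean of at least 5 were ranked by their correlation with Tubb2a on the log2 scale. The nearest 6 were Unc119, a lipid-binding trafficking protein gene (r = 0.99), Gmps, Hebp2, Nup54, Ndufaf2 and the small GTPase gene Cdc42, all higher in LFABP-/- libraries by folds of 1.28 to 2.75, so the likeness rests largely on the genotype difference. For Map1b they were Med7 (0.99), Rita1, Wdfy1, Psmb3, Fgf21 and Pdcd10, of which Fgf21, a hormone gene, had means of 26.1 ± 18.8 in LFABP-/- and 0.38 ± 0.22 in WT iBAT. Over all 30 libraries with group means removed, the nearest genes were the ESCRT-III subunit gene Chmp2b (0.88), Ptpn9, Apex1, Rala, Sh3bp5l and Chmp1b for Tubb2a. For Map1b they were Ide (0.64), Aars, Pik3c2a, Wars, Tiparp and Arhgap12.

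In iBAT and liver, library names carried 2 prefixes that split the mice of both genotypes, whose meaning the labels do not give. Within the prefix of LFABP-/- replicates 1 and 2 and WT replicates 1 to 3, Tubb2a in iBAT was 7.25-fold and Map1b 9.29-fold higher in libraries labelled LFABP-/-. Within the other prefix the folds were 6.33 and 8.36. In liver the Tuba1c folds were 1.22 and 1.95 and the Tubb5 ratios 0.886 and 0.60. In iWAT all 5 WT libraries carried the first prefix and LFABP-/- replicates 3 to 5 the other, so prefix and genotype overlap there and no comparison within the other prefix could be made.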

How the data were processed

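RNA of 30 libraries was poly(A)-selected and sequenced as single 100-base reads. According to the study's methods, the authors trimmed the reads and mapped them to GRCm38 with Ensembl release 92 gene models in CLC Genomics Workbench. The deposited table calls its values RPKM, but every library sums to 999967.3 to 999996.4, as TPM values do, and the deposited numbers are treated here as TPM. They are rounded to 1 decimal, and the reads behind them are not known, so precision rests on the spread between mice.

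Values were taken to log2 after a pseudocount of 0.5, and genes averaging at least 1 over the compared libraries entered a linear model in limma 3.58.1 under R 4.3.3 (intensity trend, two-sided, Benjamini-Hochberg over all genes), called at an adjusted p under 0.1. Such fold changes understate those of low genes. Exact permutation tests used SciPy 1.17.1 or full enumeration. The fits were tested on simulated data. The replicate number is the mouse, so numbers do not pair LFABP-/- with WT mice. Same-numbered iWAT and liver libraries of a genotype come from 1 animal, with deviations correlated at -0.19 to 0.14, and the mouse as a block changed no member call in WT iWAT against liver or in the interaction.

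Members and gene lists were chosen with earlier results of these data known. Named from the lists were up to 3 called genes per tissue in order of p, each averaging at least 5 in a group, or the top one by p where none was called, and the 2 highest markers where their values bear on a member. Shared 100-base windows and coding identity used GENCODE M21 (GRCm38), which held 41474 of the 41549 gene IDs. Protein sequences were not used here.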

Additional observations from a re-analysis of the deposited data

Results flagged for a closer look

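Of 60 groups of 5 libraries, 1 for each gene, genotype and tissue, 8 held a library that stood far from the other 4 by Dixon's 95% criterion. For normally distributed values chance gives this in about 1 in 20 groups. The values here were not log-transformed, are rounded to 1 decimal and share libraries between genes, so the count cannot be set against that rate. Tuba1a was 3048 in WT iWAT replicate 1, against 412 to 846 in the other WT iWAT libraries, and 18.3 in WT liver replicate 5, against 6.1 to 8.7 in the other WT livers. Tubb4b was 378.2 in LFABP-/- iWAT replicate 5, against 202 to 244 in the others of its group. Tubb2b was 1.8 in WT iBAT replicate 3, against 0.5 to 0.8, and 2.3 in WT liver replicate 5, against 0.0 to 0.4. The values of Tubb3 were close to the 0.1 rounding step of the table. It was 0.2 in LFABP-/- iBAT replicate 1 and 0.1 in the other 4, 0 in WT iBAT replicate 2 and 0.2 in the other 4, and 0.1 in LFABP-/- liver replicate 4 and 0 in the other 4.

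The log2 difference of Tubb2b between LFABP-/- and WT was 1.70 in iBAT and -0.56 in liver, with LFABP-/- iBAT libraries all above the WT mean and LFABP-/- livers all below it. Without WT liver replicate 5 (2.3) the liver difference was -0.15, with means of 0.12 in LFABP-/- and 0.2 in WT liver. Tubb2b was picked on the iBAT contrast and its liver values lie near 0, and the difference between tissues was not tested.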

How the results depend on the processing

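Of the settings tried, those that changed the count of genes called over all genes by more than 1.5 times, or the members called, were as follows. In the iBAT genotype comparison, 5556 genes were called, against 1391 with a minimum mean of 20 and 2865 without LFABP-/- replicates 1 to 3, a setting chosen after seeing the data, in which Tubb5 was -0.030. In iWAT, 213 genes were called, against 135 with no minimum, 135 with a minimum of 20, 114 under median-ratio scaling, 1152 with lymphocyte markers as a covariate, 54 with muscle markers as a covariate and 6 without the 5 lymphocyte-rich libraries. With the lymphocyte covariate Tubb2b was -0.15 and Tuba1c -0.060. In the liver genotype comparison, 1969 genes were called, against 564 with a minimum of 20 and 1208 when rescaled without mitochondrial genes. Liver members called numbered 0 with no minimum, 0 without mitochondrial genes, 0 with no intensity trend, 2 under median-ratio scaling (both higher) and 2 with the library name prefix of the mouse as a term, against 1. In WT iWAT against liver, 4783 genes were called with a minimum of 20, against 12946, and Tubb2a was -1.10 under median-ratio scaling. In the interaction, 239 genes were called, against 128 with a minimum of 20, 147 under median-ratio scaling and 146 without mitochondrial genes. The causes were not tested, except that a higher minimum leaves fewer genes to test.

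Leaving out 1 library at a time gave 51 to 318 genes and 0 to 1 members called in iWAT, 746 to 2150 genes and 0 to 2 members in liver, and 94 to 646 genes and 0 to 1 members in the interaction. The sign of the difference turned in some such fits for Tubb6 in iBAT (-0.0062 to 0.17), Tubb2b in iWAT (-0.11 to 0.43), and Tubb2a in WT iWAT against liver (-0.29 to 0.55) and in the interaction (-0.47 to 0.37).

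With the replicate number as a block between genotypes, 1258 liver genes and 1 member (Tuba1c, higher, adjusted p = 0.0996) were called and Tubb5 was not (adjusted p = 0.153). Same-numbered LFABP-/- and WT libraries come from different mice. Their deviations correlated at -0.44 to 0.38 in iBAT and -0.05 to 0.16 in liver. In iWAT replicates 1 to 5 gave 0.50, -0.26, 0.54, 0.62 and 0.69, a likeness whose source was not tested. With the mouse as a block, the interaction had 157 genes called. No other member call changed under a block.

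Without read counts, the precision of low values such as WT iBAT Map1b and Tubb2b rests on the spread between mice. Such values are also rounded to 1 decimal, and 5 mice a group limit small differences.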

Other observations

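The values of Tubb2a in the 3 tissues of a mouse can be set side by side. WT mouse 5 had the highest Tubb2a of all livers (256), while its iWAT held the lowest of the WT iWAT libraries (62.4) and its iBAT 13.1. LFABP-/- mouse 5 had the highest LFABP-/- values in liver (197) and in iWAT (194) and the lowest in iBAT (68.7). The coefficient of variation of Tubb2a among 5 mice was 46.1% in LFABP-/- liver and 87.2% in WT liver, and 32.2% in LFABP-/- iBAT and 10.9% in WT iBAT. For Tuba1a it was 96.6% in WT iWAT.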
